A study of Mus musculus with 6 samples.

Results

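The family of miR-148a, miR-148b and miR-152 comprises the miRNAs cut from the hairpins Mir148a, Mir148b and Mir152. Its members here were every row of the miRNA table that belongs to either arm of these 3 hairpins, whatever its level, which gave 6 of the 778 mature miRNAs listed. Small RNA was sequenced from mouse primary mesangial cells, the contractile cells that support the capillaries of the kidney glomerulus. The cells of both groups were cultured in medium with 25.5 mM glucose and 20% foetal bovine serum and were used at passages 3 to 6. The Control group held 3 libraries without added cytokine. The TGF-β1 group held 3 libraries from cells given transforming growth factor-β1, a driver of kidney fibrosis, at 10 ng/ml for 72 h. No age, sex or genotype is given in the labels, and nothing states that the libraries came from separate cultures, so p-values measure the spread between these libraries only.

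A miRNA hairpin is cut by Drosha and then Dicer into a duplex, of which the guide strand is retained by an Argonaute protein while the passenger strand is mostly lost. In this family the guide is the 3p arm and the passenger is the 5p arm. The guide recognises target mRNAs mainly through its seed, bases 2 to 8 counted from the 5′ end, so guides with the same seed can bind the same sites. The family is best known for repressing Dnmt1, the enzyme that maintains DNA methylation when DNA is copied.

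The mature sequences are shown because the seed defines the family and because the few differing bases decide whether a read can be given to 1 member. They were read from RefSeq (GRCm38.p6) and are printed 5′ to 3′ with the seed in capitals. The 3 guides carry the same seed:

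mmu-miR-148a-3p: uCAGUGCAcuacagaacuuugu

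mmu-miR-148b-3p: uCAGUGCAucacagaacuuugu

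mmu-miR-152-3p: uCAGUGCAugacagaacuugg

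The passengers of miR-148a and miR-148b share another seed, from which that of miR-152 differs:

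mmu-miR-148a-5p: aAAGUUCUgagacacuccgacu

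mmu-miR-148b-5p: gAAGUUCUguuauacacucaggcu

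mmu-miR-152-5p: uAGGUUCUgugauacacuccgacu

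With positions counted from 1 at the 5′ end, mmu-miR-148a-3p and mmu-miR-148b-3p differed by 2 substitutions, C9U and U10C. Over their 21 shared positions, mmu-miR-148b-3p and mmu-miR-152-3p also differed by 2, C10G and U20G, and mmu-miR-148a-3p and mmu-miR-152-3p by 3. How many mismatches were allowed in read assignment is not given in the sources used here, so an exchange of reads between these guides was not tested. None of the 3 guide rows, nor that of mmu-miR-148b-5p, had the same reads as another row of the table in all 6 libraries (0 other rows for each). Of the 778 listed miRNAs, 581 had a mature sequence in the reference table. Among these, 0 outside the family carried the guide seed at bases 2 to 8, and 0 shared a seed with a passenger of the family.

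The hairpins lie on separate chromosomes of the NCBIM37 mouse genome, which is the build the study used for its RNA reads, and each hairpin sequence was the same in RefSeq and in that genome. Mir152 (chr11:96711707-96711779, plus strand) sits in an intron of the protein-coding gene Copz2. Mir148b (chr15:103115556-103115652, plus strand) sits in an intron of Copz1, also protein-coding. Copz1 and Copz2 encode the zeta subunits of the COPI coat of transport vesicles, and both are transcribed in the direction of the hairpin they hold. Mir148a (chr6:51219811-51219909, minus strand) overlaps no other annotated gene.

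The 6 libraries held between 16478281 reads (Control replicate 1) and 20169254 reads (TGF-β1 replicate 1) in all. Levels are in RPM, which divides the reads of each miRNA by the library total and multiplies them by 1000000, and 1 read was worth 0.0496 to 0.0607 RPM. The TGF-β1 libraries placed 71.6% to 73.1% of their reads on listed miRNAs, against 79.5% to 79.8% in Control. Scaling each library to its reads on listed miRNAs takes out this difference, and changes under that scaling are given below. Why the shares differed was not tested. Markers of contractile and mesenchymal cells (miR-143-3p, miR-145-5p, miR-199a-3p and miR-214-3p, 4 of 4 listed) summed to 2575 to 2946 RPM in Control and 2603 to 3066 RPM in TGF-β1. Within this sum the members differed. MiR-143-3p averaged 2029 RPM in Control and 2052 RPM in TGF-β1, and miR-145-5p 127 and 239 RPM. MiR-199a-3p averaged 601 RPM in Control and 484 RPM in TGF-β1, and miR-214-3p 8.55 and 7.17 RPM. The skeletal muscle miRNAs miR-1a-3p, miR-133a-3p and miR-206-3p also summed to 3440 to 3646 RPM in Control and 3285 to 3465 RPM in TGF-β1. Nearly all of this was miR-206-3p, which averaged 3502 RPM in Control and 3363 RPM in TGF-β1. The 5 epithelial miRNAs of the miR-200 family summed to 22.2 to 25.4 RPM in Control and 1.67 to 2.53 RPM in TGF-β1, and the hepatocyte miRNA miR-122-5p stood at 24.2 to 27.3 RPM in Control and 13.1 to 13.9 RPM in TGF-β1. Their part in the results was not tested. In such bulk RNA, fewer cells of a type and less RNA per cell cannot be told apart.

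Changes were tested with limma on log2(RPM + 1) over the 408 miRNAs that passed a filter on low reads, and a miRNA was called at a Benjamini-Hochberg adjusted p under 0.05. Of the family, 4 of the 6 members passed the filter, of which 1 was called lower and 0 were called higher after TGF-β1. Among all tested miRNAs, 31.9% were called lower and 17.4% higher. The lower calls numbered 130 and the higher calls 71, a split that became 91 and 97 with median-of-ratios scaling. The median log2 change was -0.21 over the 4 tested members and -0.17 over all 408 tested miRNAs. With median-of-ratios scaling, which is built to centre the changes, the latter was -0.022, a value that follows from the scaling. Scaled to the sum of the listed rows, the median of all tested miRNAs was -0.086. Under that scaling miR-148b-3p changed by -0.84, miR-148a-3p by -0.16, miR-152-3p by -0.018 and miR-148b-5p by 0.30. Only miR-148b-3p was called there (limma adjusted p = 0.0222). What else set the median of -0.17 on the RPM scale was not tested. Relative to this median of -0.17, miR-148b-3p stood at -0.79, miR-148a-3p at -0.084, miR-152-3p at 0.017 and miR-148b-5p at 0.36.

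**Figure D1:**
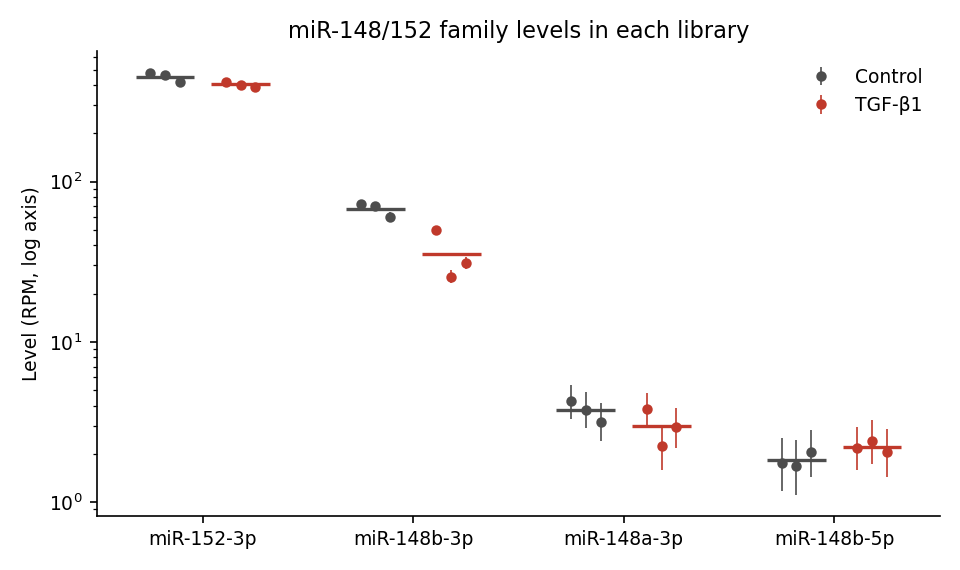
Level of the 4 tested family members in each library, in RPM on a log axis. Points are libraries in replicate order with exact 95% counting intervals (hidden by the point where narrow) and horizontal lines are means of 3 libraries. miR-152-3p lies between 390.3 and 473 RPM in every library, and only the groups of miR-148b-3p and miR-148b-5p do not overlap.

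MiR-152-3p was the most abundant member and ranked 48 of 778 by mean level. It stood at 473, 461 and 419 RPM in Control replicates 1 to 3, and at 419.8, 401 and 390.3 RPM in TGF-β1 replicates 1 to 3. The groups touched at a single point, where TGF-β1 replicate 1 lay just above Control replicate 3. The mean was 451 ± 28.5 RPM in Control and 404 ± 14.9 RPM in TGF-β1 (SD, n = 3), a log2 change of -0.16 ± 0.08 (SE). This did not pass the test (limma adjusted p = 0.162). The 95% interval of the log2 change ran from -0.35 to 0.039. The sign turned to 0.058 with median-of-ratios scaling and 0.060 with DESeq2, neither of which was called.

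MiR-148b-3p fell. It stood at 72.4, 70.6 and 60.4 RPM in Control replicates 1 to 3, and at 49.98, 25.5 and 30.9 RPM in TGF-β1 replicates 1 to 3. Every TGF-β1 library lay below every Control library, and replicate 1 was the closest to Control. The groups of 2 of the 4 tested members did not overlap, as for 56.9% of all tested miRNAs. The mean went from 67.8 ± 6.44 to 35.5 ± 12.9 RPM (SD, n = 3), to 0.523 of the Control level. The log2 change was -0.97 ± 0.23 (SE, limma adjusted p = 0.00988), with a 95% interval from -1.50 to -0.43. The change was the 36th lowest of the 408 tested, and it stayed short of an absolute log2 change above 1, a second rule that 7.84% of tested miRNAs met as lower.

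The size of this fall varied with the libraries included. The log2 change of miR-148b-3p was smallest without TGF-β1 replicate 2, at -0.77, followed by -0.90 without TGF-β1 replicate 3, -0.92 without Control replicate 1 and -0.94 without Control replicate 2. It was larger without Control replicate 3, at -1.05, and without TGF-β1 replicate 1, the deepest library, at -1.24. The fall was called in all 6 of these fits, with limma adjusted p-values from 0.000512 to 0.0440. Among the 130 miRNAs called lower, TGF-β1 replicate 1 was the highest library of its group for 76, and among all 408 tested for 163. Whether depth or another property of this library set its position was not tested.

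MiR-148a-3p was scarce. It stood at 4.25, 3.78 and 3.18 RPM in Control replicates 1 to 3, which were 70, 63 and 56 reads, and at 3.82, 2.23 and 2.93 RPM in TGF-β1, which were 77, 40 and 50 reads. The groups overlapped. In Control replicate 3 the 56 reads allowed 2.40 to 4.13 RPM by the exact 95% interval. Intervals of this kind take in the counting error of reads alone, and several PCR reads can stem from 1 molecule. The mean was 3.73 ± 0.537 RPM in Control and 2.99 ± 0.795 RPM in TGF-β1 (SD, n = 3). The log2 change of -0.26 ± 0.18 (SE) did not pass the test (limma adjusted p = 0.277), and its 95% interval ran from -0.68 to 0.16. The log2 change of miR-148b-3p, -0.97, lay below that interval. Because log2(RPM + 1) understates changes at such low levels, -0.97 cannot be set directly against this interval. With 0.1 added in place of 1, the log2 change was -0.33 for miR-148a-3p and -0.99 for miR-148b-3p. Whether miR-148a-3p fell in the same proportion is not settled by these values.

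The guides together took 549.5, 535 and 482 RPM in Control and 474, 429.2 and 424 RPM in TGF-β1, in replicate order. This sum went from 522 ± 35.4 to 442 ± 27.2 RPM (SD, n = 3), a ratio of 0.847. In RPM all 3 TGF-β1 libraries lay below all 3 Control libraries. As a percent of the reads on listed miRNAs the groups overlapped, with TGF-β1 replicate 1 at 0.0662% and Control replicate 3 at 0.0606%. The difference of -80.1 RPM shrank to -28.3 RPM with TMM scaling and to -44.1 RPM when scaled to the sum of the listed rows. As a sum over the members it was not tested.

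**Figure D2:**
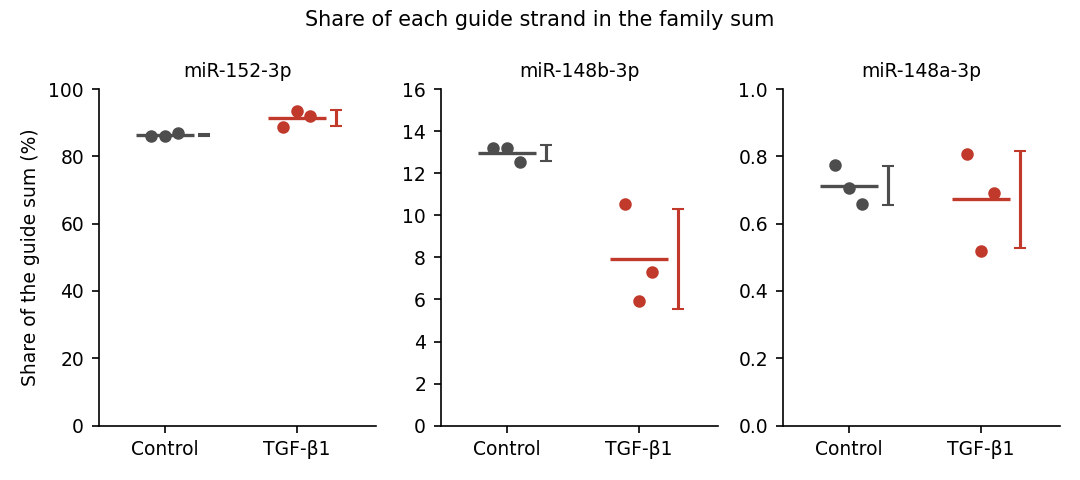
Share of each guide strand in the summed RPM of the 3 guides, in percent, with a separate axis from 0 for each guide. Points are libraries, lines are means and bars are SD (n = 3). The share of miR-148b-3p is 12.5% to 13.2% in Control and 5.94% to 10.6% in TGF-β1, and that of miR-152-3p is higher in TGF-β1 by nearly the same number of percentage points.

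Within that sum the makeup differed between the groups, a measure that does not depend on the scaling between libraries. MiR-152-3p made up 86.1%, 86.1% and 86.8% of guide reads in Control and 88.6%, 93.5% and 92.0% in TGF-β1. MiR-148b-3p made up 13.2%, 13.2% and 12.5% in Control and 10.6%, 5.94% and 7.29% in TGF-β1. The groups of miR-148b-3p did not overlap, and its spread was wider in TGF-β1, at 2.37 percentage points (SD, n = 3) against 0.373 in Control. Since the shares sum to 100%, the higher share of miR-152-3p restates the lower share of miR-148b-3p and is no separate observation. The level of miR-152-3p itself was 451 RPM in Control and 404 RPM in TGF-β1. MiR-148a-3p stayed below 1% in every library, at 0.712% ± 0.0574 in Control and 0.672% ± 0.144 in TGF-β1 (SD, n = 3), with overlapping groups.

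The changes of the guides were compared in pairs by their difference of log2(RPM + 1) within each library, called their log2 ratio here. Exact two-sided permutation tests were adjusted over the 3 pairs. With 3 against 3 libraries no exact p can be below 0.1. The ratio of miR-148b-3p to miR-152-3p changed by -0.81 on the log2 scale, with no overlap between groups (exact p = 0.1, adjusted p = 0.15). The ratio of miR-148b-3p to miR-148a-3p changed by -0.71, again with no overlap (exact p = 0.1, adjusted p = 0.15). The ratio of miR-148a-3p to miR-152-3p changed by -0.10 with overlapping groups (exact p = 0.8, adjusted p = 0.8), and its sign turned without TGF-β1 replicate 2, to 0.037.

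Only the miR-148b hairpin had enough reads on both arms for a test. Its passenger, miR-148b-5p, stood at 1.76, 1.68 and 2.04 RPM in Control replicates 1 to 3, and at 2.18, 2.40 and 2.05 RPM in TGF-β1. These values rested on 28 to 44 reads per library. The groups did not overlap, though Control replicate 3 and TGF-β1 replicate 3 differed by less than the worth of 1 read. The mean was 1.83 ± 0.191 RPM in Control and 2.21 ± 0.178 RPM in TGF-β1 (SD, n = 3). The log2 change of 0.18 ± 0.13 (SE) did not pass the test (limma adjusted p = 0.264), with a 95% interval from -0.11 to 0.48.

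The balance of the guide and the passenger of miR-148b changed. There were 41.1, 42.0 and 29.6 guide reads per passenger read in Control replicates 1 to 3, and 22.9, 10.6 and 15.1 in TGF-β1 replicates 1 to 3. Every TGF-β1 library lay below every Control library. The ratio went from 37.6 ± 6.94 to 16.2 ± 6.22 (SD, n = 3). The difference of log2(RPM + 1) between the arms fell from 4.60 to 3.45, a change of -1.15 ± 0.29 (SE, limma adjusted p = 0.0103 over the 84 hairpins whose arms each averaged 1 RPM or more). In 22.6% of these hairpins the 3p to 5p ratio fell past the threshold, and the median change over all 84 was -0.11. The change of miR-148b was the 4th lowest. It is by construction the log2 change of miR-148b-3p, -0.97, minus that of miR-148b-5p, 0.18, which was not called. Most of it therefore restates the fall of the guide and is no separate observation.

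The call of the arm ratio depended on single libraries. The change was -1.09 with a limma adjusted p of 0.0731 without Control replicate 1, and -0.91 with an adjusted p of 0.0705 without TGF-β1 replicate 2. Its direction was kept in every fit that included the hairpin.

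**Figure D3:**
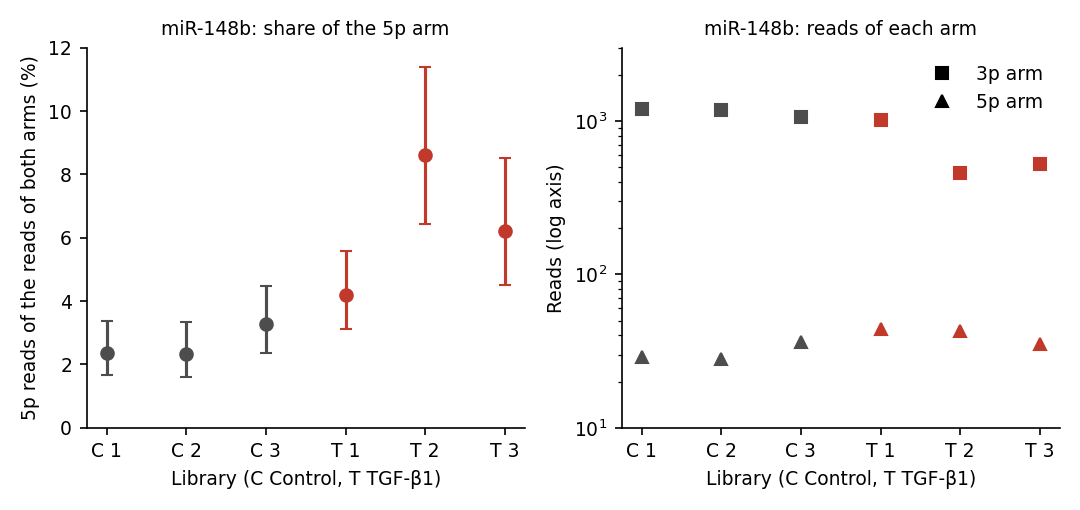
Left, reads of the 5p arm as a percent of the reads of both arms of miR-148b in each library, with Wilson 95% intervals. Right, reads of each arm per library on a log axis. The 5p share is 2.32% to 3.27% in the Control libraries (C) and 4.18% to 8.60% in the TGF-β1 libraries (T), while 5p reads range from 28 to 44 throughout.

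Expressed as a share, the 5p arm held 2.37%, 2.32% and 3.27% of the hairpin's reads in Control and 4.18%, 8.60% and 6.22% in TGF-β1. By the Wilson 95% method, the interval of Control replicate 3 (2.37% to 4.49%) overlapped that of TGF-β1 replicate 1 (3.13% to 5.57%). The interval of TGF-β1 replicate 2 (6.45% to 11.4%) lay above those of all Control libraries.

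The passengers of miR-148a and miR-152 did not pass the filter. MiR-148a-5p had 1 read, in Control replicate 1, and 0 reads elsewhere. Over the Control libraries 1 of 190 reads of the hairpin came from the 5p arm, or 0.526% (Wilson 95% interval 0.0930% to 2.92%). In TGF-β1 it was 0 of 167 reads, which allows a share of up to 1.80% when 3 reads are taken as the limit of a count of 0 and up to 2.25% by the Wilson 95% interval. The share of the 5p arm of miR-148b over the TGF-β1 libraries, 5.77%, lay above these limits. Smaller differences between the groups were not detectable at this depth.

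MiR-152-5p had 3, 0 and 4 reads in Control and 1, 1 and 0 reads in TGF-β1, against 6669 to 8467 reads of miR-152-3p. Its share of the hairpin's reads was 0.0306% in Control (7 of 22870, Wilson 95% interval 0.0148% to 0.0632%) and 0.00896% in TGF-β1 (2 of 22330, interval 0.00246% to 0.0327%). The intervals overlapped. By comparison, the 5p arm of miR-148b made up 2.64% of reads in Control (93 of 3528, interval 2.16% to 3.22%).

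Among the 581 miRNAs with a sequence in the reference table, a search for the letters of the guide seed shifted by 1 base found 3 outside the family, all with it at bases 1 to 7 and 0 with it at bases 3 to 9. They belong to the miR-130 and miR-301a hairpins and are shown because they overlap the seed of this family while their own seed starts 1 base further on. The shared letters are in capitals:

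mmu-miR-130a-3p: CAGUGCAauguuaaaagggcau

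mmu-miR-130b-3p: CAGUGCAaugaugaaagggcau

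mmu-miR-301a-3p: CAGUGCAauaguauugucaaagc

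MiR-130a-3p went from 203 ± 17.1 RPM in Control to 82.9 ± 12.9 RPM in TGF-β1 (SD, n = 3), with a log2 change of -1.29 (limma adjusted p = 0.000282). MiR-130b-3p went from 40.9 ± 3.31 to 19.5 ± 2.89 RPM (SD, n = 3), and its log2 change was -1.04 (limma adjusted p = 0.000962). Both fell, as miR-148b-3p did. MiR-301a-3p was at 5.33 ± 1.61 RPM in Control and 4.09 ± 1.48 RPM in TGF-β1 (SD, n = 3), and its log2 change of -0.33 did not pass (limma adjusted p = 0.362). MiR-301b-3p, which is named as a relative of miR-301a-3p and had no mature sequence in that table, was added after its values were seen. Its log2 change was -0.16 and did not pass (limma adjusted p = 0.370). A run of shared letters is a description and does not show shared targets.

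**Figure D4:**
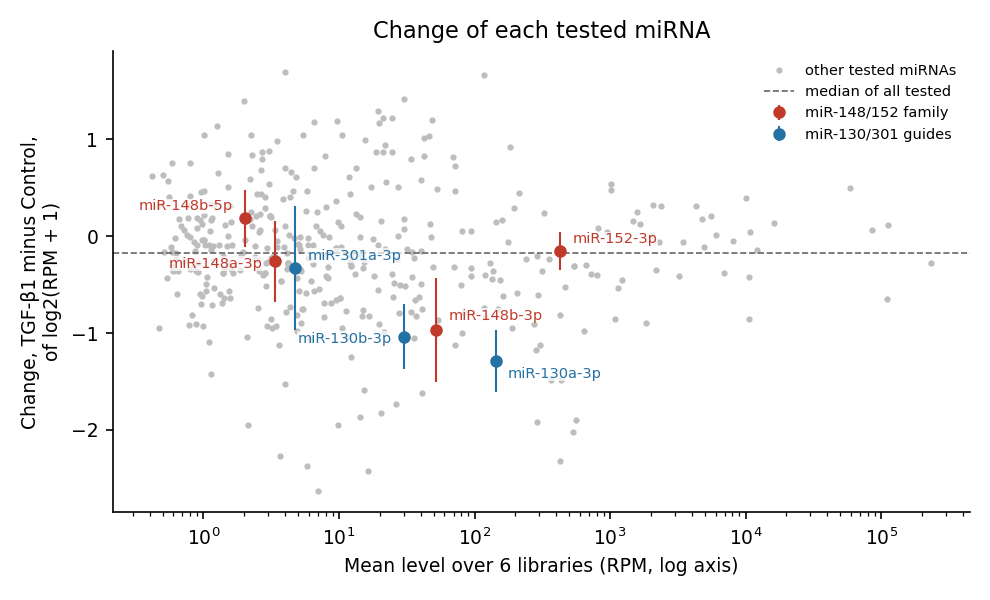
Change of log2(RPM + 1), TGF-β1 minus Control, of each of the 408 tested miRNAs against its mean level in RPM (log axis). Family members (red) and miR-130 and miR-301a guides (blue) carry 95% limma intervals, and the dashed line is the median of all tested, -0.17. MiR-148b-3p lies near miR-130b-3p, while miR-152-3p lies on the median.

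Because the family is known for Dnmt1, other miRNAs reported to target DNA methyltransferases were read beside it. The list held miR-29a-3p, miR-29b-3p and miR-29c-3p (Dnmt3a and Dnmt3b), miR-143-3p (Dnmt3a), and miR-126-3p, miR-185-5p and miR-342-3p (Dnmt1). Of these 7, 6 were tested, 1 rose and 3 fell, and the background of 17.4% higher and 31.9% lower calls applies here too. MiR-29c-3p went from 51.8 ± 0.944 to 30.6 ± 3.68 RPM (SD, n = 3), and its log2 change was -0.75 (limma adjusted p = 0.00214). MiR-29b-3p went from 47.4 ± 6.68 to 30.3 ± 3.02 RPM (SD, n = 3), and its log2 change was -0.62 (limma adjusted p = 0.00914). The much more abundant miR-29a-3p rose from 5188 ± 277 to 6010 ± 394 RPM (SD, n = 3), and its log2 change was 0.21 (limma adjusted p = 0.0320). That last call was lost with the replicate block (limma adjusted p = 0.0601) and without any filter (limma adjusted p = 0.0501). It was also lost without Control replicate 1 or 3 and without TGF-β1 replicate 2 or 3, at limma adjusted p-values of up to 0.104.

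MiR-185-5p fell from 1416 ± 54.7 to 1032 ± 34.0 RPM (SD, n = 3), and its log2 change was -0.46 (limma adjusted p = 0.00130), a call lost with median-of-ratios scaling (limma adjusted p = 0.0581) and with DESeq2 (adjusted p = 0.175). MiR-143-3p and miR-342-3p had log2 changes of 0.010 and 0.15 and did not pass (limma adjusted p = 0.945 and 0.746). MiR-342-3p ranged from 84.2 RPM in a Control library to 246 RPM in a TGF-β1 library, with overlapping groups. MiR-126-3p, an endothelial miRNA, had 1 read in Control and 2 in TGF-β1 and was not tested. The miR-29 guides are close in sequence, so their counts may share reads.

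The tested miRNAs whose levels followed each guide most closely were found by Pearson's r of log2(RPM + 1) over the 6 libraries, a description in which the group difference and the library itself are shared by all points. MiR-148b-3p was closest to miR-27b-5p (r = 0.994), miR-449a-5p (r = 0.989) and miR-199a-5p (r = 0.988). Their log2 changes were -0.79, -0.61 and -0.95. MiR-152-3p was closest to miR-21-3p (r = 0.985), let-7i-3p (r = 0.976) and miR-720 (r = 0.969), whose log2 changes of -1.04, -1.13 and -0.90 were far larger than its own, since r takes no account of size. MiR-148a-3p was closest to miR-17-3p (r = 0.966), miR-92a-3p (r = 0.948) and miR-467c-5p (r = 0.929). No miRNA stood among the closest of more than 1 guide.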

How the data were processed

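Small RNA from 3 Control and 3 TGF-β1 libraries was sequenced on an Illumina HiSeq. Per the methods of the study, adaptors, contaminants, low-quality reads and reads under 18 nt were removed, and the rest were compared with miRBase version 17 using Bowtie. The authors deposited 1 table whose unit they named TPM. In these deposited RPM values, the name used here, every value was a whole number of reads (within 0.002) of a library total recovered as an integer, 100% of values in each library. How reads matching several miRNAs were counted is not given in the sources used here.

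The filter was filterByExpr of edgeR 4.0.16 (minimum count 10) on the recovered reads. Because values were normalized, changes were tested with limma 3.58.1 under R 4.3.3 (trended prior) on log2(RPM + 1) with group as the only term, adjusted over all tested miRNAs by the Benjamini-Hochberg method. Arm ratios were fitted likewise over 84 of the 263 hairpins with both arms listed. Ratios of guides were compared by exact permutation tests (scipy 1.17.1). Count tests on the recovered reads (edgeR, DESeq2 1.42.0) were alternatives, as were other scalings, pseudocounts and filters, a replicate block and leaving out each library. The main limma fits of miRNAs and of arm ratios, and the edgeR and DESeq2 fits, were first tested on simulated data with known changes. The permutation tests and the other alternatives were not. Within groups, pairs of libraries gave a chi-square of 38.5 to 117.5 for each degree of freedom, far above sampling noise, so all 6 were kept as separate libraries.

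The miRNAs named are the 6 members, those holding the guide seed within 1 base or sharing a passenger seed, the 7 of the DNA methyltransferase list, the 3 closest by correlation to each guide, and marker lists. Of the hematopoietic markers only 1, miR-142-5p, was listed, at 0 to 0.240 RPM. The markers of neurons (1.40 to 2.40 RPM) and endothelium (0 to 0.298 RPM) were also near 0 in all libraries. Members and lists were chosen with earlier results of these data known. Hairpin positions came from GENCODE vM1 on NCBIM37, and sequences were taken from RefSeq.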

Additional observations from a re-analysis of the deposited data

How the results depend on the processing

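MiR-148b-3p was called lower in each of the 12 other settings (log2 change -0.99 to -0.72, adjusted p 0.00314 to 0.0222) and without each library in turn (-1.24 to -0.77). MiR-152-3p, miR-148a-3p and miR-148b-5p were called in none of the fits run for them. MiR-152-3p changed sign, uncalled, to 0.058 with median-of-ratios scaling and 0.060 with DESeq2, and without each library it ranged from -0.21 to -0.12. The miRNAs called lower numbered 130, against 72 with DESeq2 (75 higher) and, on the recovered reads in edgeR, 125 with library totals (69 higher) and 101 with TMM (85 higher). No pairing by equal replicate numbers was seen (correlations of same-numbered deviations -0.084, -0.21 and -0.34, and 0 of 6 libraries correlated best with their own number). These deviations are from means of 3 libraries, so they cannot exclude pairing. With the replicate block, 61 miRNAs were called higher and 115 lower, and miR-148b-3p had an adjusted p of 0.00990.

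Hairpins whose 3p to 5p ratio fell numbered 19, against 8 with both arms at 10 RPM, 8 with the replicate block and 3 to 16 without each library. Those whose ratio rose numbered 4, against 11 with a pseudocount of 10, 2 with both arms at 10 RPM, 12 with both arms at 0.1 RPM, 2 with the replicate block and 1 to 5 without each library. For miR-148b the change was called in the 5 other settings that include it and ranged from -1.43 to -0.91 without each library. The 10 RPM minimum and the minimum mean of 50 reads left out miR-148b-5p, so its values there were not run.

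The ratio of miR-148a-3p to miR-152-3p changed by 0.073 with a pseudocount of 10 and by -0.22 to 0.037 without each library. The guide sum differed by -28.3 RPM with TMM scaling and -44.1 RPM with scaling by the summed listed miRNAs. The share of miR-148a-3p differed by -0.11 to 0.036 percentage points without each library. MiR-143-3p ranged from -0.091 to 0.072 and miR-342-3p from -0.24 to 0.38 without each library. Where values changed sides or size, the cause was not tested. The passengers of miR-148a and miR-152, at 0 to 4 reads a library, set the limit of depth.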
